A study of Rattus norvegicus with 8 samples.

Results

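The semicircular canal duct (SCCD) epithelium was described here in its untreated state, from the 4 control samples of a series of 8. The members were the 4 samples whose labels call them untreated, cultures 1 to 4 by the numbers in their titles. Each was a primary culture grown from the semicircular canals of neonatal Wistar rats on a permeable support, with no drug, transgene or deletion. Each gave total RNA that was amplified by 2 rounds of in vitro transcription, and 1 Affymetrix rat array per culture was described. The paper names 2 types of rat array, and genes without a probe set on the described arrays were not assessed. The labels do not say whether the 4 cultures came from separate dissections or animals, nor how many animals gave tissue to each. The spread between cultures may therefore be partly technical. The other 4 samples of the series were not used, and no comparison between conditions was made.

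The canal ducts are tubes of epithelium that enclose endolymph, the potassium-rich and sodium-poor fluid whose movement bends the hair bundles of the balance organs. Duct cells take up sodium from endolymph through the epithelial sodium channel ENaC in the apical membrane and pass it out by the Na,K-ATPase in the basolateral membrane. They also secrete chloride under the control of cAMP and absorb calcium, while potassium secretion into vestibular endolymph is the known task of dark cells, a neighbouring cell type. A permeable support lets the cells form a tight sheet with an apical and a basolateral side.

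Signals were in arbitrary units and each array was rescaled to a 2% trimmed mean of 500. A signal depends on how well the probes of a probe set bind as well as on RNA, so ranks and orders of genes below are of signals and do not order RNA levels between genes. The arrays were not alike in quality. Culture 3 had the lowest deposited signal, with a scale factor of 2.48 against 0.9998, 0.9998 and 1.49 in cultures 1, 2 and 4. Its ratio of 3′ to 5′ signal, which rises as RNA or its copies get shorter, was also the highest. It was 13.7 for actin (8.10 to 9.60 in the others) and 3.79 for GAPDH (2.10 to 2.59). Both ratios were above 1 in all 4 cultures, and their part in low signals was not tested. The table holds no detection calls, so a level was set instead. A signal was called above this other-tissue level when it passed the 95th percentile of 81 probe sets. They belong to 73 genes used by retina, pancreas, testis, pituitary and other tissues. The level was 179, 162, 159 and 118 in cultures 1 to 4. By construction a few of those genes pass it too, and 3 of the 73 did so on every array. Of 15866 probe sets, 7984 (50.3%) were above the level in 4 of 4 cultures and 6175 (38.9%) in none. Of 10411 genes, each read from its strongest probe set, 6169 were above it in 4 of 4, which is a background of 59.3% for every list below.

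The label of the tissue was checked against markers of epithelium. Krt18, a keratin of simple epithelia, gave 9716, 9507, 13057 and 10032 in cultures 1 to 4 (mean 10578 ± 1667, SD, n = 4). This placed it at rank 15 of 15866 probe sets. Krt8, its partner in the keratin filament, gave 8705, 8825, 13059 and 10477 (10267 ± 2029.7) at rank 21. All 4 cultures were high for both, and culture 3 was the highest for both. Atp1b1, the beta-1 subunit of the Na,K-ATPase, gave 3298, 2719, 4282 and 3299 (3399.6 ± 649) and was higher than 96.8% of probe sets. Means and SDs below are likewise over n = 4 cultures. All 3 markers were far above the other-tissue level in every culture, so these data did not go against the label. The cultures were bulk samples, in which fewer cells of a type and less RNA per cell cannot be told apart.

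Krt8 and Krt18 are neighbours on chromosome 7 and are read from opposite strands. Their promoters are printed because both keratins ranked within the highest probe sets of the array, and that of Rps3a is added as the ribosomal protein gene with the highest signal whose window holds a pyrimidine run at its start. Sequences are from RefSeq (assembly GRCr8), from 250 bases before to 50 after the start of the gene, 5′ to 3′ on the strand of the gene. Krt8 lies at chr7:135010290-135010589 (minus strand), Krt18 at chr7:135035918-135036217 (plus strand) and Rps3a at chr2:173826993-173827292 (minus strand). Capitals mark the motif GGGCGG, the motif TATAAA and the motif CCAAT on either strand, and a pyrimidine run, CTTTC or its variant CTTTT, on the strand of the gene within 10 bases of its start.
Krt8: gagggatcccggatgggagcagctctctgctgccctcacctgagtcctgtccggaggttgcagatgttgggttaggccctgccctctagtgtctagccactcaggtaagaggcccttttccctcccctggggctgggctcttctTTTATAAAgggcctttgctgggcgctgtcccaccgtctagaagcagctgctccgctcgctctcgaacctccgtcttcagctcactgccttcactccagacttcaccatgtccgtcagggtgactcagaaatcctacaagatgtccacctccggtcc
Krt18: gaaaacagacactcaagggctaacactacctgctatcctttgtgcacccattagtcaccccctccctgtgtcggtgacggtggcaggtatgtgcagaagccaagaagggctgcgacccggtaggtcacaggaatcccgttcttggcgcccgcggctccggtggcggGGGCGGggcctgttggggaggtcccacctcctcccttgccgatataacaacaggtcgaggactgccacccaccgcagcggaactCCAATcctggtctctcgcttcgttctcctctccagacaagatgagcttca
Rps3a: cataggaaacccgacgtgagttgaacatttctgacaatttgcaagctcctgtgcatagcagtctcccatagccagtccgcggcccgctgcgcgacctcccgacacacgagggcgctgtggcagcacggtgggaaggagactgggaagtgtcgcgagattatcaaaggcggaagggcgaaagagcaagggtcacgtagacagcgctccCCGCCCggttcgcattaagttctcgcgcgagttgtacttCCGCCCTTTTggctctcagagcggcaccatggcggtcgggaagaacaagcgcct

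In Krt8 the capitals are TATAAA with its first base at -104, which overlaps a match on the opposite strand at -106. In Krt18 they are GGGCGG at -84 and CCAAT at 1, the first base of the gene. In Rps3a they are GGGCGG on the opposite strand at -43 and -4, and the pyrimidine run CTTTT at 2, which shares a base with the second of these. Among genes above the other-tissue level in 4 of 4 cultures, 328 of 5251 with a promoter in the table held TATAAA (6.25%), and among genes above it in none, 358 of 2528 did (14.2%). GGGCGG stood in 67.2% of the first group and 43.8% of the second, while CCAAT stood in 38.4% and 36.0%. Over all 27457 promoters of the table these shares were 14.3% for TATAAA, 34.9% for GGGCGG and 37.7% for CCAAT, and over the 8630 genes of the array with a promoter in the table they were 8.71%, 59.6% and 37.6%. The pyrimidine run near the start was held by 5 of the 14 ribosomal protein genes with a promoter among the 40 highest genes (35.7%), against 3.49% of genes on the array and 4.37% of all promoters. A match is a run of letters and does not show that a factor binds there.

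Ribosomal proteins were frequent among the highest signals. Of the 100 highest probe sets, with geometric mean signals of 7038 to 13138, 65 carried 1 gene name (64 genes), 28 carried several and 7 carried none. They are the building blocks of ribosomes and made up 21 of the 65. Rps23, of the small ribosomal subunit, was first with 11994, 10759.6, 17408 and 13262 (13356 ± 2888), and Rpl3, of the large subunit, was second with 12668 ± 1686. Over the whole array, 39 of 42 ribosomal protein genes were above the level in 4 of 4 cultures and 36 of their probe sets were within the 500 highest. The order at the top was not fixed, since the 10 highest probe sets fell as low as rank 26 in a culture.

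Among the other leading genes, Fst, which encodes follistatin, a secreted binder of activin, gave 11852, 10537, 14087 and 12502 (12244 ± 1475) at rank 4. Lcn2, a secreted lipocalin that binds iron carriers of bacteria, gave 10784, 10599, 13779 and 10368 at rank 9. Clu, the secreted chaperone clusterin, gave 10875 ± 997 at rank 12. These 3 secreted proteins were high in every culture, with the highest value in culture 3. Ctnna1, alpha-catenin of the adherens junction, had a mean of 11202 ± 1918 at rank 11. Epcam, a cell adhesion protein of epithelia, had 9884 ± 1293 at rank 26. Spint2, an inhibitor of membrane serine proteases, had 9071 ± 1292 at rank 45. Annexins and S100 proteins were also present at the top, with Anxa2 at 10507 ± 1946, its partner S100a10 at 8359.5 ± 925, S100a11 at 10216 ± 922 and Anxa1 at 8831 ± 478. All 9 annexin genes and 10 of 15 S100 genes were above the level in 4 of 4 cultures. Fn1, the matrix protein fibronectin, and Htra1, a secreted serine protease, had 9814 ± 747 and 9249 ± 1187.

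**Figure D1:**
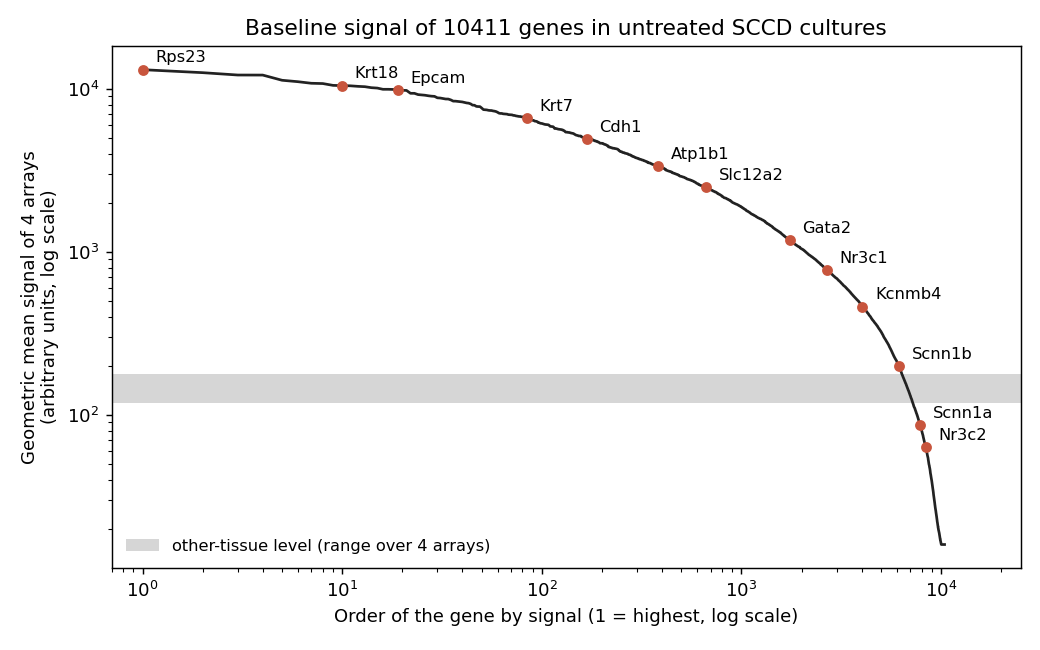
Geometric mean signal of each of 10411 genes (strongest probe set, 4 untreated cultures) against its order, both axes on a log scale; the grey band is the range of the other-tissue level over the arrays (118 to 179). Krt18 and Epcam sit near the top of the curve, Scnn1b lies just above the band and Scnn1a and Nr3c2 lie below it.

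Keratins, the intermediate filaments of epithelial cells, fell into some with high signals and others near or below the level. Of 14 with a probe set, 7 were above the level in 4 of 4 cultures. Besides Krt8 and Krt18 these were Krt7 (6647 ± 806) and Krt19 (4842 ± 818), which are also found in simple and ductal epithelia, and Krt15 (2245 ± 1482), Krt14 (1668 ± 676) and Krt13 (310.1 ± 5.65), which are found in stratified epithelia. Krt5, the partner of Krt14 in basal cells, passed the level in 1 culture, with signals of 158, 155, 127 and 234. Krt1, Krt4, Krt12, Krt20 and Krt79 passed it in none. Krt15 was the most uneven of the keratins and gave 2238, 1962, 591 and 4189, with culture 3 low and culture 4 high. Of the epithelial membrane and regulator genes, 15 of 16 were above the level in 4 of 4. Cdh1, the adhesion protein E-cadherin, gave 4930.0, 5543, 4808 and 4559 (4959.8 ± 418). F11r, a junctional adhesion molecule, had 5258 ± 877 and St14, the membrane protease matriptase, 3072 ± 225. Muc1, a membrane mucin, was the exception at 85.1 and passed the level in no culture. The summed signal of the 16 genes was 53206 to 60507 over the cultures.

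The sodium transport machinery was seen in part. In the Na,K-ATPase, Atp1b1 was joined by Atp1b3, the beta-3 subunit, with 1793, 1834, 1233 and 2057 (1729 ± 350.3). Atp1b2 and Atp1b4, the other beta subunits, were at 10.9 and 25.1, well below the level in every culture. Atp1a4, a subunit known from sperm, was at 8.9, below the level in every culture. Of the FXYD proteins, small membrane proteins that tune the pump, Fxyd3 gave 3974, 3629, 3834 and 3669 (3777 ± 159) with hardly any spread. Fxyd5 and Fxyd6 were above the level in 4 of 4 at 364 ± 80 and 294 ± 90.6. Fxyd2, the gamma subunit of kidney tubules, was at 22.5 ± 23.1, and Fxyd1, Fxyd4 and Fxyd7 also passed the level in no culture. Of the 12 genes of pump and FXYD with a probe set, 5 were above the level in 4 of 4.

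ENaC itself was close to the level or below it. Scnn1a, the alpha subunit, gave 94.2, 99, 83.4 and 71.8 (87.1 ± 12.1), below the level in every culture, and its weaker probe set was lower still. Scnn1b, the beta subunit, gave 251, 202, 182 and 168 (201 ± 36.6), above the level in all 4 but by a small margin. Scnn1g, the gamma subunit, gave 99.2, 133, 157 and 248 (159.5 ± 63.8) and passed it in culture 4 alone. A signal under the level does not show that the transcript was absent, since the level was set by other genes with other probes. Several regulators of the channel were above the level in 4 of 4. Nedd4 and Nedd4l, ubiquitin ligases that take ENaC off the membrane, had 7480.3 ± 417 and 727 ± 51. Prss8, the membrane protease prostasin that activates the channel, gave 575, 402, 396 and 588 (490.3 ± 106), with cultures 1 and 4 above the other two. Sgk1, a kinase that opposes Nedd4l, had 370.4 ± 67.2, and Furin, which cuts the alpha and gamma subunits, 401 ± 104. Slc9a3, the apical sodium-proton exchanger of kidney and gut, and Slc12a3, the thiazide-sensitive cotransporter, were at 56.8 and 15.2 and below the level in every culture. In all, 10 of 17 genes of sodium absorption were above the level in 4 of 4, and 5 were so when the level was set at the highest signal of the other-tissue genes.

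Chloride secretion needs an entry step, an exit channel and cAMP signalling. Slc12a2, the basolateral Na-K-2Cl cotransporter NKCC1 that loads cells with chloride, gave 2386, 2469, 2643 and 2454 (2488 ± 109), with a narrow spread. Clic1 and Clic4, intracellular channel-like proteins, had 5374 ± 289 and 5645 ± 354. Clcn3, an exchanger of endosomes, gave 879, 973, 497 and 912, with culture 3 low, and Clcn6 had 184 ± 22.5. Clcn2, a channel of the plasma membrane, was at 47.1 and Clcn7, of lysosomes, at 40.9, both below the level in every culture. Gnas, the G protein subunit that drives cAMP production, had 6049.7 ± 667 from the strongest of 3 probe sets. Adcy6 and Adcy3, cyclases that make cAMP, had 392 ± 96.5 and 387 ± 70.1. Ezr and Nherf1, the scaffold that ties transporters to the apical cytoskeleton, had 3453 ± 305 and 726 ± 62.8. Cftr was not analysed here. Of the list, 12 of 21 genes were above the level in 4 of 4.

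Potassium channels gave little signal. Of 73 genes with a symbol starting in Kcn, 4 were above the level in 4 of 4 cultures (5.48%), against the background of 59.3%, and 57 were above it in none. The 4 were Kcnmb4, a beta subunit of the large-conductance calcium-activated channel, at 466 ± 77.1, and the leak channels Kcnk6, Kcnk1 and Kcnk13, at 349 ± 165, 237 ± 18.7 and 195 ± 42.2. Kcnk6 gave 225, 271, 309.7 and 592, and culture 4 lay clearly above the rest. Kcnma1, the pore that Kcnmb4 accompanies, was at 50.7 and above the level in no culture. The genes that define potassium-secreting dark and marginal cells were mostly low. Kcnq1 and Kcne1, the subunits of their apical channel, were at 69.1 ± 33.7 and 6.75 ± 2.94, and Kcnj10 at 83.3 ± 27.5, all below the level in every culture. Of 7 such genes, Slc12a2 and Esrrb, a nuclear receptor (344 ± 76.4), were above it in 4 of 4. Slc12a7 and Slc12a4, which carry potassium and chloride out of cells, had 754 ± 63.2 and 229 ± 64.

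Of the calcium transport genes, some pumps, 1 exchanger and 1 entry channel were above the level in 4 of 4. Trpv5, an apical calcium channel, gave 215, 179.8, 238 and 208 (210.2 ± 24.1), above the level in 4 of 4, from the stronger of its probe sets. All 4 values were under the highest signal of the other-tissue genes on the same array (270.5, 297.5, 325.8 and 236.5). The other probe set of Trpv5 was below the level in every culture. Trpv6, the related channel, gave 169, 94.8, 46.8 and 129 (110.0 ± 52) and passed the level in culture 4 alone. The calcium buffers Calb1 and S100g, which carry calcium through such cells, were at 22.9 and 49.6 and below the level in every culture. Atp2b1, the plasma membrane calcium pump, gave 2854, 3417, 3007 and 3163 (3110.0 ± 240.5). Atp2a2, the pump of the endoplasmic reticulum, had 3712 ± 534, and Slc8a1, the sodium-calcium exchanger, 326 ± 64. The related pumps Atp2b2, Atp2b3 and Atp2b4 and the exchanger Slc8a3 were at 87.3, 52.7, 53.7 and 91.5 and passed the level in no culture, and the exchanger Slc8a2 passed it in 2. Vdr, the vitamin D receptor, was at 93.9, below the level in every culture. In the whole list 7 of 21 genes were above the level in 4 of 4, and 3 were so when every probe set of a gene had to pass. Among aquaporins, water channels, Aqp1 was alone above the level, with 256, 261, 248 and 152, and the other 9 were below it in every culture. That of Aqp1 rested on 1 of its 2 probe sets, and it fell under the level when the highest other-tissue signal was taken. In acid-base transport 9 of 28 genes were above the level in 4 of 4, led by the proton pump subunits Atp6v1a (2542 ± 119.6) and Atp6v1b2 (2159.9 ± 130.5). Slc16a1, a lactate carrier, had 764 ± 153 and Slc4a7, a sodium-bicarbonate cotransporter, 758 ± 81.2. Car2, a carbonic anhydrase, was at 148 ± 51, and passed the level in 2 cultures.

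**Figure D2:**
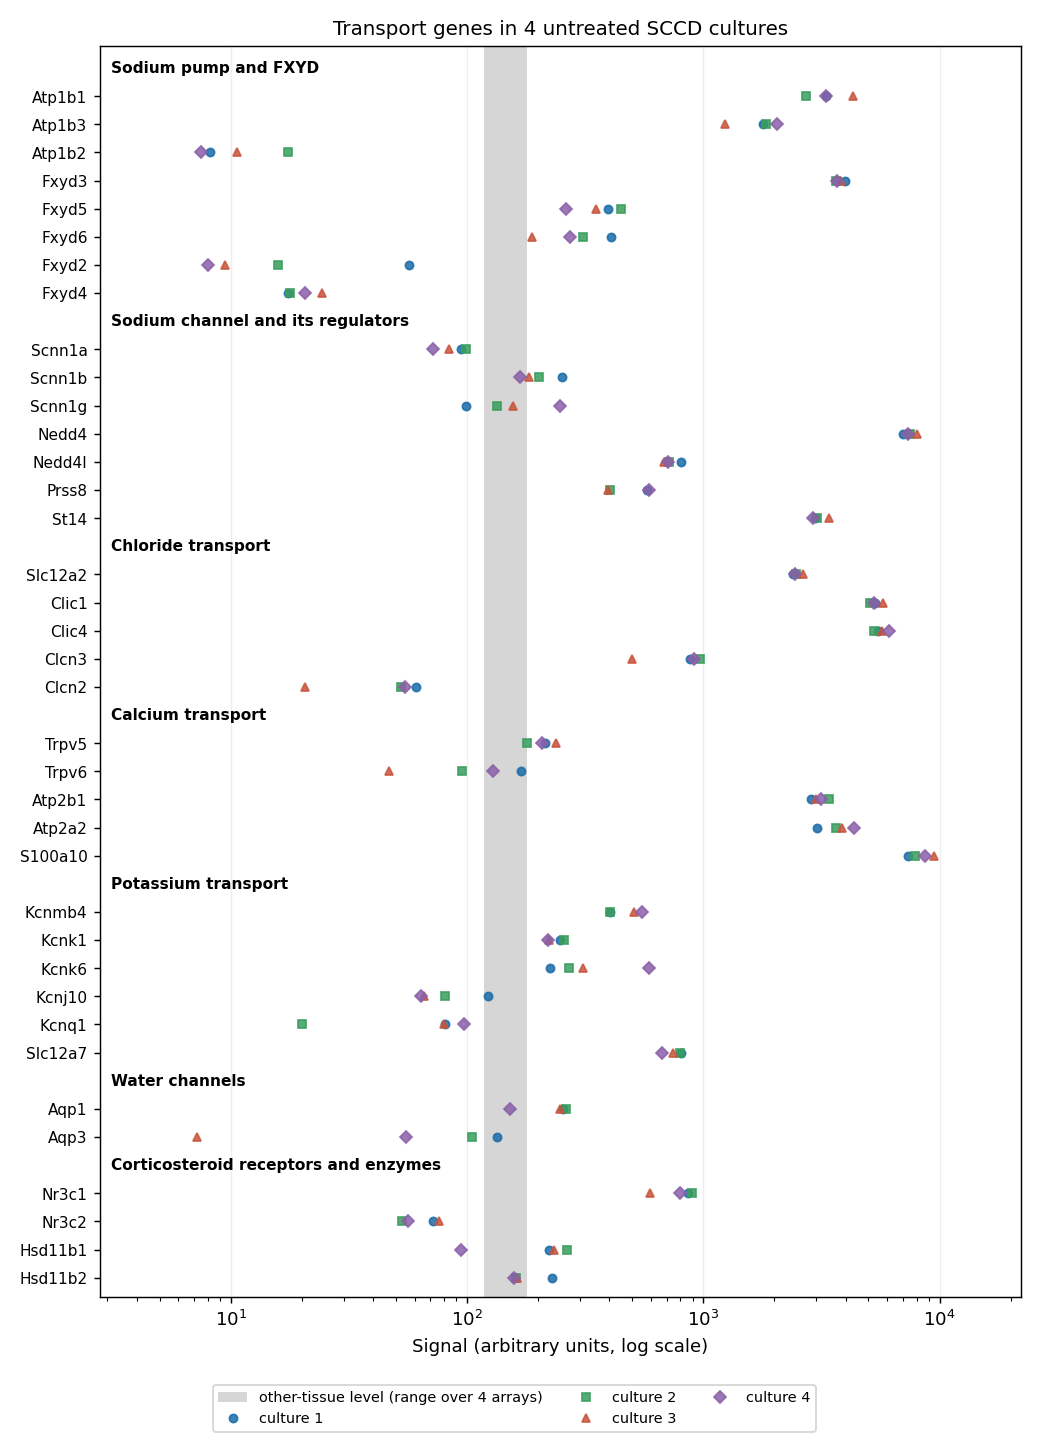
Signal of transport genes in each of the 4 untreated cultures (log scale, 1 point per culture) with the range of the other-tissue level over the arrays as a grey band; a call was made against the level of each array, not against the band. Atp1b1, Fxyd3, Nedd4, Slc12a2 and Atp2b1 lie far to the right of the band, the ENaC subunits lie in or beside it and Kcnq1 and Nr3c2 lie to its left.

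The wider transporter families were read for context. Of 240 solute carrier (Slc) genes, 109 were above the level in 4 of 4 cultures (45.4%). Of the 10 highest, 4 were mitochondrial carriers of the Slc25 group: Slc25a3, which brings phosphate into mitochondria (6619.9 ± 434), the ATP-ADP exchangers Slc25a5 (5198 ± 349) and Slc25a4 (5173 ± 653), and the citrate carrier Slc25a1 (2549 ± 448). Slc38a2, a sodium-coupled amino acid carrier, had 2838 ± 329 and Slc20a1, a sodium-coupled phosphate carrier, 2064 ± 367. All 16 genes of mitochondrial ATP synthase (Atp5) were above the level in 4 of 4, with Atp5f1b, its beta subunit, at 6353 ± 1586, and so were 13 of 17 genes of the proton pump (Atp6) and 63 of 73 genes of respiratory chain subunits. Of 24 ABC transporters 9 passed in 4 of 4, and Abcg1, an exporter of sterols, had 1759.6 ± 217. Of 15 Trp channel genes 4 passed, and Trpm7, a channel that carries its own kinase, gave 794, 761, 365 and 754, with culture 3 low.

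Receptors that act on transport were mostly under the level. Nr3c1, the glucocorticoid receptor, gave 857, 898, 596 and 794 (786 ± 134) from the stronger of 2 probe sets, while the other was below the level in every culture. Nr3c2, the mineralocorticoid receptor, gave 71.8, 53.2, 75.8 and 56.1 (64.2 ± 11.2), below the level in every culture. Hsd11b1 and Hsd11b2, the enzymes that activate and inactivate glucocorticoids, gave 223, 264, 233 and 94.6 and 228, 162, 162 and 158, and each passed the level in 3 cultures. The chaperones of the receptors were high, with Hsp90ab1 at 3542 ± 311 and Ptges3 at 3411 ± 63.3. Tsc22d3 and Fkbp5, which glucocorticoids are known to raise, had 404 ± 102 and 229.9 ± 56.4 without added steroid. Of 37 nuclear receptors 8 were above the level in 4 of 4, and when every probe set of a gene had to pass, 2 were. Of 37 cell surface receptors known to act on transport, 6 were above it in 4 of 4, and 2 of them with the highest other-tissue signal as the level. F2r, the thrombin receptor, had the highest signal, with 2083, 2059, 2273 and 2704 (2279.7 ± 299), and F2rl1, the related receptor for trypsin-like proteases, had 359.6 ± 6.88 with an SD that was small beside its mean. Of the nucleotide receptors, P2ry2 gave 253, 379, 205 and 145, P2rx4 gave 325, 241, 228 and 216 and P2rx3 gave 251, 217, 263 and 173. These were above the level in 4 of 4. P2rx3, read from the stronger of 2 probe sets, was under the highest other-tissue signal of the array in every culture. P2rx2 gave 392, 355, 108 and 309, above the level in 3 cultures, and P2ry6 gave 187, 175, 157 and 93.1, above it in 2. In the detection calls of the paper, P2ry2 and P2rx4 were present and P2rx3 and P2ry6 absent. Of growth factor receptors 16 of 28 were above the level in 4 of 4, and 10 when every probe set of a gene had to pass. Axl had the highest signal of them (2621 ± 45.9), while Pdgfra, Pdgfrb and Kit were at 80.7, 10.4 and 25.4.

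Cell junction genes were read by type. Tight junctions seal the space between cells, and their claudins set which ions may pass. Of 23 tight junction genes with a probe set, 14 were above the level in 4 of 4 cultures (60.9%), close to the background. Tjp1, the scaffold ZO-1, gave 3422, 3368, 3234 and 3305 (3332 ± 80.9), an almost even set of values. Ocln, occludin, had 1956 ± 286. Of 11 claudins, 4 were above the level in 4 of 4. Cldn3 and Cldn4, known as sealing claudins, gave 2684, 2398, 2796 and 2832 (2678 ± 197) and 2463, 2120.1, 2193 and 2591 (2342 ± 222). Cldn12 and Cldn7 had 439 ± 91 and 341 ± 28.4. The other 7 passed in no culture, among them Cldn2 (60.7 ± 9.55) and Cldn10 (53.3 ± 14.2), which form ion pores in leaky epithelia, Cldn1 (74.5 ± 28.7) and the kidney claudin Cldn16 (9.85 ± 1.94).

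Adherens junctions and desmosomes hold cells together through actin and keratin. Of adherens junction genes, 12 of 16 were above the level in 4 of 4 (75.0%). Next to Ctnna1 and Cdh1 stood Ctnnb1, beta-catenin, with 5454, 5035, 5511 and 5882 (5471 ± 347), Vcl, vinculin, at 4930.2 ± 446 and Actn1, alpha-actinin, at 4103 ± 599. Cdh2, N-cadherin of mesenchymal and neural cells, was at 69.3 and Cdh16, of kidney tubules, at 19.4, both below the level in every culture. Of 7 desmosome genes, 6 were above it in 4 of 4 (85.7%). Dsp, desmoplakin, gave 2659.6, 3123, 2831 and 3003 (2904 ± 202), Dsc2, desmocollin-2, had 1095 ± 89 and Pkp2, plakophilin-2, 834 ± 80.3. Jup, plakoglobin, which both junctions share, had 2535 ± 323.

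Gap junctions, which pass ions and small molecules between cells, came from few connexins. Gja1, connexin 43, gave 2955, 3565, 3170.0 and 4589.7 (3569.8 ± 725) and Gja5, connexin 40, gave 2697, 2221, 2314 and 2650.2 (2470.4 ± 238). Each rested on its strongest probe set, and their other probe sets were below the level in every culture, so neither passed when all probe sets had to. The other 8 connexins with a probe set passed in no culture, Gjb2 and Gjb6, the connexins 26 and 30 of the cochlea, at 85.8 ± 34.7 and 25.6 ± 12.5. Of genes for attachment to the matrix, 19 of 28 were above the level in 4 of 4 (67.9%), near the background of 59.3%. Cd151, a tetraspanin that binds integrins, had 6225 ± 484, Agrn, the basement membrane proteoglycan agrin, 5108 ± 383, and Itgb1 and Itga3, the subunits of a laminin receptor, 4737 ± 384 and 3289 ± 227. Lamc1, the laminin gamma-1 chain, gave 3254, 3097, 3001 and 3321, Col4a1 and Col4a5, of basement membrane collagen, had 1664 ± 293 and 2559.5 ± 301, and Itgb4, of hemidesmosomes, 938 ± 43.6.

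**Figure D3:**
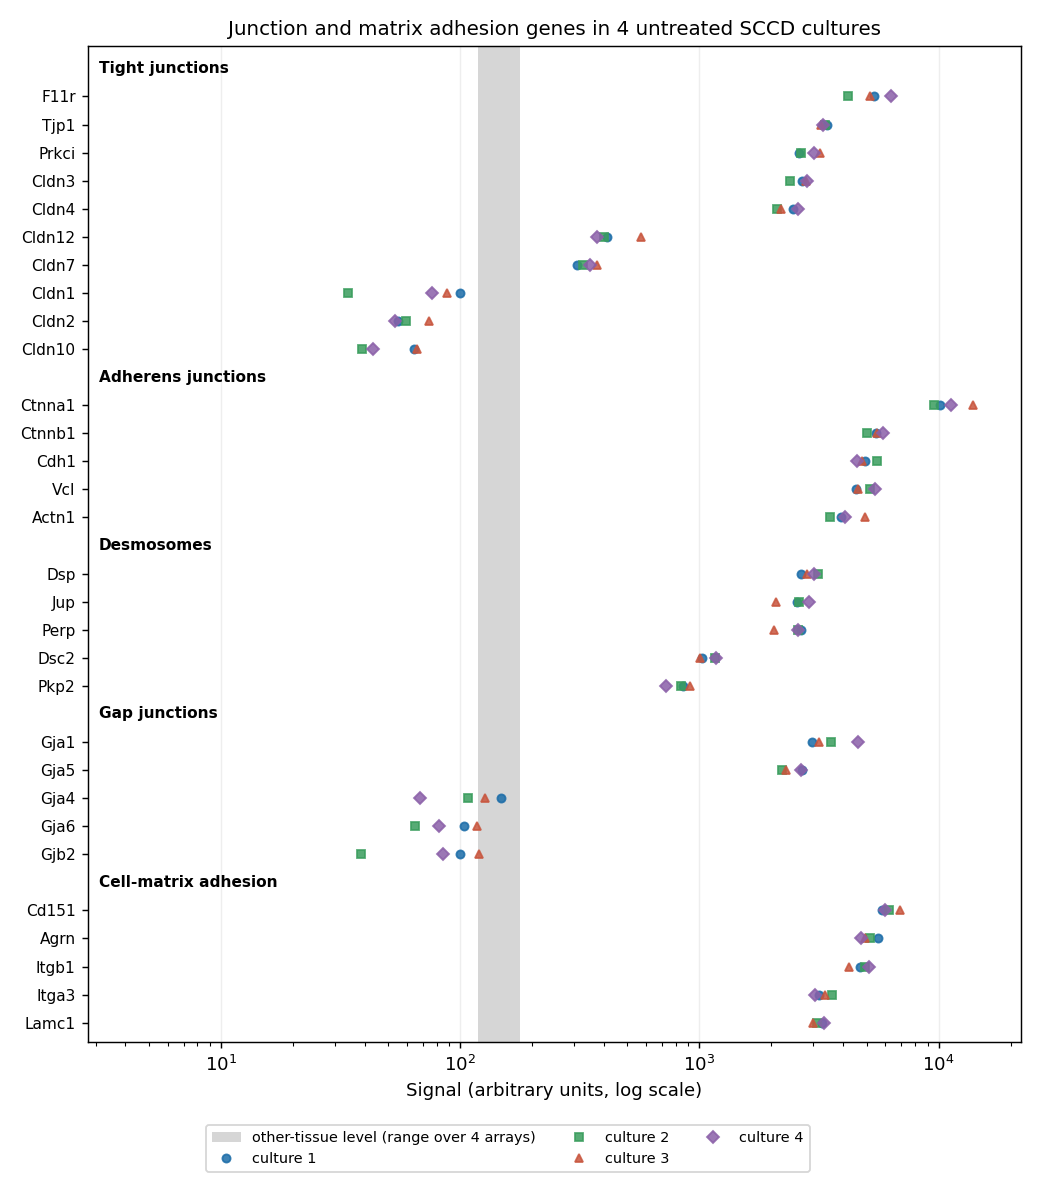
Signal of junction and matrix adhesion genes in each of the 4 untreated cultures (log scale, 1 point per culture), with the range of the other-tissue level as a grey band. Most named genes lie far to the right of the band with the 4 points close together, and Cldn1, Cldn2, Cldn10, Gja4, Gja6 and Gjb2 lie in or to the left of the band.

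Regulators of inner ear development were mixed. Of 31 with a probe set, 16 were above the level in 4 of 4 (51.6%), and 9 were so when all probe sets had to pass. Gata2, a transcription factor of the developing ear, gave 1092, 980.1, 1375 and 1319 (1192 ± 187). Dlx5, needed for the vestibular part of the ear, gave 904, 847, 694 and 650.3 (774 ± 121), with cultures 1 and 2 above cultures 3 and 4. Id1 and Id3, inhibitors of differentiation that BMP signals raise, gave 1679, 1744, 4163 and 2269 and 784, 1005, 1545 and 1091, both highest in culture 3. The BMP ligands Bmp2, Bmp7 and Bmp4 had 677 ± 24.1, 454 ± 22.3 and 229 ± 56.5, and Fgfr2, a receptor used in canal formation, 665 ± 128. Ntn1, netrin, which takes part in shaping the canals, had 419 ± 146. Pax8, Gata3, Otx1, Sox2 and Emx2 were at 66.5, 61.8, 30.2, 16.1 and 16.8 and passed the level in no culture.

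Markers of other cells were read over whole lists, and their part in the results above was not tested. For hair cells, 1 of 9 genes were above the level in 4 of 4, namely Myo6 (387 ± 62.6), a myosin that other epithelia use too, and it was under the level set by the highest other-tissue signal. The defining Espn, Cdh23, Ocm and Chrna9 were at 87.6, 71, 10.7 and 21.7, and the summed signal of the 9 genes was 691 to 783. For red cells, 0 of 5 were above it in 4 of 4 and Hbb was at 21.6, with sums of 306 to 472. For macrophages and leukocytes, 2 of 17 were, Cd14 (278 ± 75.6) and Aif1 (228 ± 66.2), with Ptprc and Cd68 at 33.1 and 50.6 and sums of 1267 to 2021. For endothelium, 2 of 12 were, Kdr (704 ± 151) and Esam (204 ± 53), with Pecam1 and Vwf at 27.7 and 61.5 and sums of 1262 to 1607. For neurons and Schwann cells, 3 of 17 were, namely Egr2 (693 ± 218), S100b (654 ± 104) and Sox10 (269.7 ± 66.4), with Snap25 and Nefl at 18.6 and 37.4 and sums of 2363 to 2955. For melanocytes, 2 of 5 were, Gpnmb (628 ± 144) and Sox10, with Mlana and Kit at 16.8 and 25.4 and sums of 915 to 1341. For muscle, 4 of 18 were, led by Tagln (4538 ± 461), an actin-binding protein also made by cells in culture. The others were Myh1 (569 ± 87.5, from the strongest of 5 probe sets), Acta2 (528 ± 48.9) and Smtn (326 ± 78.5). Des and Myh11 were at 85.3 and 24, and the sums were 6519 to 7241. For genes of endolymph matrix and sensory regions, 1 of 7 was, Gsn (602 ± 89.4), with sums of 814 to 1287. These small counts moved with the setting. The macrophage and leukocyte count was 4 without culture 2 and with the 90th percentile of the other-tissue genes as the level, 0 with their highest signal and 1 when every probe set had to pass. The neuron and Schwann cell count was 5 with the 90th percentile, and the endothelium and melanocyte counts were 1 each with the highest signal. The red cell count was 1 without culture 1 and with the 90th percentile, and the count for endolymph matrix and sensory regions was 2 without culture 3 and with the 90th percentile.

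Several collagens of fibroblasts and cartilage were above the level, although both lists lay under the background. Of fibroblast genes, 9 of 21 were above the level in 4 of 4 (42.9%), with sums of 15176 to 17197. Col5a2, of fibrillar collagen V, gave 5688, 5806, 5051 and 6169 (5679 ± 466), Col3a1 had 2359 ± 187 and Col1a1 1119 ± 68.9. Fmod, a collagen-binding proteoglycan, gave 2908, 1972, 1396 and 1576, highest in culture 1. Col1a2 (1580 ± 322), Col5a1, Postn, Fbn1 and Ogn completed the 9. Of the 21 fibroblast genes, 11 passed the level in no culture. Among these were Dcn, Lum, Pdgfra, Pdgfrb and Thy1, at 100.2, 44.1, 80.7, 10.4 and 72.2. Of cartilage and bone genes, 4 of 13 were above it in 4 of 4 (30.8%). Col2a1, the main collagen of cartilage, gave 2126, 1842, 670.1 and 702 (1335 ± 759), and Col9a1, which coats its fibrils, gave 3782, 3069.8, 1393 and 1699.6 (2486 ± 1130.5). Both were high in cultures 1 and 2 and low in cultures 3 and 4, and they were the strongest of the 13 genes. The summed signal of the 13 ran from 8389.5 and 6821 in cultures 1 and 2 to 3381 and 4247 in cultures 3 and 4. The other genes above the level in 4 of 4 did not share this split. Col11a1 gave 1236, 1084, 413 and 1088, low in culture 3 alone, and Col9a2 gave 589, 327, 376 and 376, highest in culture 1. Acan, aggrecan of cartilage, and Bglap, osteocalcin of bone, were at 109.8 and 3.21, below the level in every culture. Collagen II is also made in the otic capsule and by otic epithelium.

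All 25 proliferation genes with a probe set were above the level in 4 of 4 cultures, with sums of 19708 to 25341. Mki67, a protein of cycling cells, gave 1068, 1189, 1228 and 1074 (1139.7 ± 80.9), Cdk1, the mitotic kinase, gave 1373, 1763, 2011 and 1417 (1641 ± 302), and Pcna, the clamp of DNA polymerase, had 3889 ± 342. Cyclin D1, Ccnd1, had 5399 ± 905, while the brakes Cdkn1a and Cdkn1b (p21 and p27) had 2388 ± 412 and 2186 ± 468 from their stronger probe sets. The other probe set of Cdkn1a had 343 ± 86.9. That of Cdkn1b gave 713, 574, 237 and 108, under the level in culture 4. Of cell cycle brakes, D cyclins and their kinases together 9 of 13 were above the level in 4 of 4, Cdkn2a, Rb1 and Cdkn2b passed it in some cultures, and Cdk6 (78.4) passed it in none. Of genes of wound repair and mesenchymal state, 17 of 22 were above it in 4 of 4. Ccn2, a matrix-bound growth regulator, gave 7630.4, 7174, 8710.1 and 7844 (7839.8 ± 644), Tnc, tenascin, had 7363 ± 763 and Vim, vimentin, 5942 ± 816. Sparc, a collagen-binding protein, gave 7026, 7554, 4832 and 7265, with culture 3 low. Of the repressors of E-cadherin in this list, Snai1 was above the level in 4 of 4, and Zeb1 passed it in 1 culture (147 ± 58.7). Cdh2, the marker of the switch from E-cadherin, passed it in none.

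**Figure D4:**
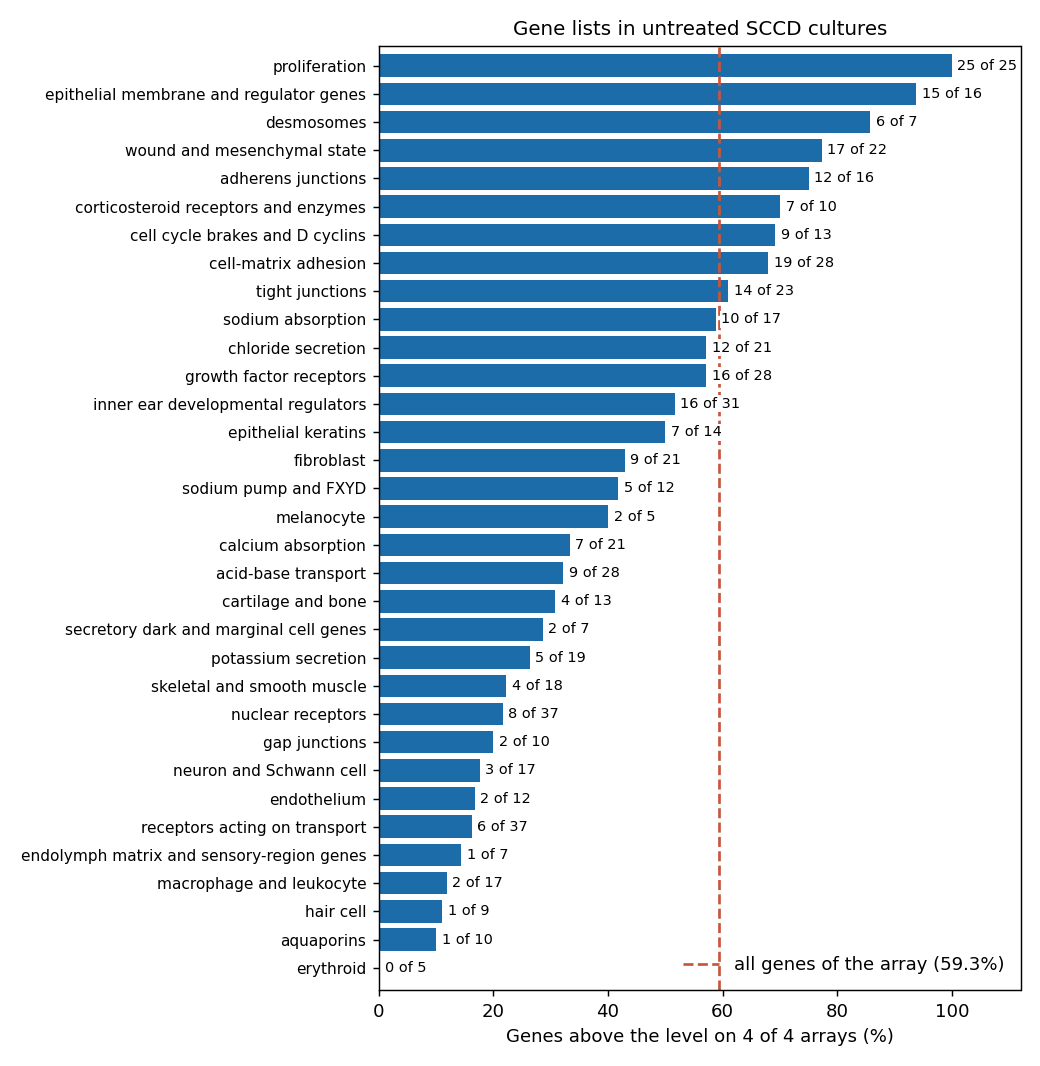
Share of genes of each list above the other-tissue level in 4 of 4 untreated cultures (bars, % of the genes with a probe set, numbers beside the bars), with the share over all 10411 genes as a dashed line at 59.3%. Proliferation (100%), epithelial membrane genes (93.8%) and desmosomes (85.7%) lie to the right of the line, and hair cell (11.1%), aquaporin (10.0%) and erythroid genes (0%) lie far to its left.

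The 4 cultures gave similar profiles. Pearson's r of log2 signals, over 15866 probe sets that share an array design, ran from 0.963 (cultures 2 and 3) to 0.975 (cultures 2 and 4). The pairs that held culture 3 gave 0.9628 to 0.9688 and the pairs without it 0.9705 to 0.9747. Of the 100 highest probe sets, 76 were within the 100 highest of every culture. The median SD between cultures was 0.26 log2 units over all probe sets and 0.20 over those above the level in 4 of 4, and without culture 3 the first fell to 0.21. Of those above the level, 5562 (69.7%) kept within 1.5-fold and 397 had a highest signal at least 2 times the lowest, a background of 4.97%. This share was 1.62% without culture 3, and 3.88, 3.63 and 3.03% without culture 1, 2 and 4 in turn. The range of a probe set cannot grow when a culture is left out. The spread depended on the signal. When probe sets were put in 4 groups of like size by signal, the median SD was 0.43 in the lowest group and 0.34, 0.23 and 0.18 in the groups above it. Culture 3 lay farthest from the others for 3344 of the 7984 probe sets above the level, against 1276, 1379 and 1985 for cultures 1, 2 and 4.

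The genes that varied most among those above the level in 4 of 4 were chosen by their SD, so their spread is a description. Krt15, named above, was first. Upp1, uridine phosphorylase, gave 873, 981, 1035 and 248, with culture 4 low. Klk6, a kallikrein-related protease, gave 624, 591, 1487 and 2219, higher in cultures 3 and 4. Wfdc18, a secreted protein with a protease inhibitor fold, gave 5307, 6036, 4885 and 1545, with culture 4 low. Sprr1a, a cornified envelope protein that keratinocytes make under stress, gave 566, 629, 2042 and 1171, high in culture 3. Usp18, an interferon-induced protease, gave 224, 191, 615 and 212, also high in culture 3, while C1s, a complement protease, gave 1386, 1155, 441 and 1252 and was low there. Lrp2, the endocytic receptor megalin, gave 465, 237, 346 and 127, low in culture 4. Anp32a, Cul4a, Sult5a1, Stk38l, Mgat2 and C9h6orf141 completed the 15 with Col2a1. At the other end, Apoo, of the mitochondrial inner membrane, gave 724, 731, 732 and 722 and Flii, an actin-binding protein, gave 1473, 1444, 1443 and 1456. Napa, of membrane fusion, had 1147 ± 12.5, Rnpep, an aminopeptidase, 1686 ± 20.7, and Vdac3, a channel of the outer mitochondrial membrane, 4930.0 ± 58.8.

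**Figure D5:**
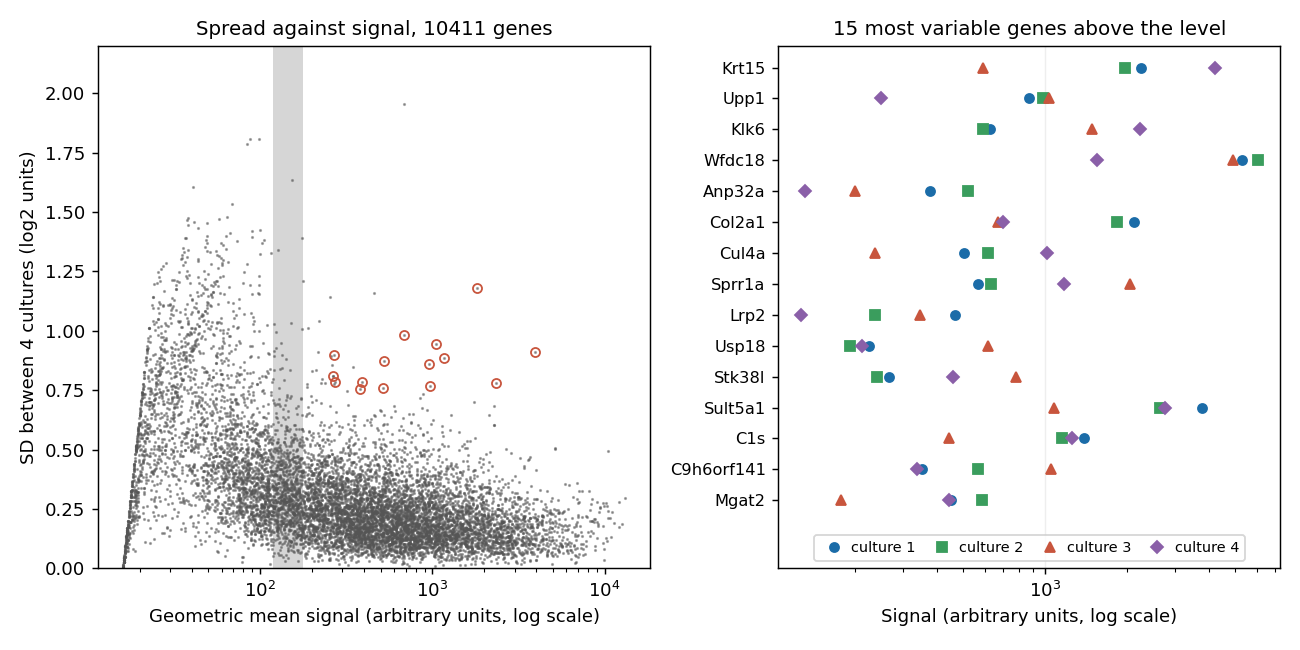
Left, SD of log2 signal between the 4 untreated cultures against geometric mean signal (log scale) for 10411 genes, with the other-tissue level as a grey band and the 15 most variable genes above the level in 4 of 4 cultures circled; points to the right of the band that are not circled at like SD failed the level in a culture. Right, the signal of those 15 genes in each culture (log scale), where Krt15, C1s and Mgat2 are lowest in culture 3 and Upp1, Wfdc18 and Lrp2 in culture 4.

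Probe sets of the same gene often gave unlike signals, which bounds how far a low value can be read. Of 1868 genes with several probe sets, 1292 had at least 1 above the level in 4 of 4 cultures. In those, the strongest and the weakest differed by a median of 2.48 log2 units (5.57-fold), and in 619 (47.9%) another probe set was above the level in no culture.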

How the data were processed

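Total RNA of untreated SCCD primary cultures was amplified and hybridized by the authors to Affymetrix rat arrays, of which 1 per culture was described here. The deposited values are linear signal intensities that the authors computed with Affymetrix software, and per the labels every probe set was scaled to a target signal of 500. From the 15923 probe sets, 57 array controls were left out. Cultures 3 and 4 had trimmed means of 202 and 336 as deposited, so each array was rescaled here to a 2% trimmed mean of 500. No detection calls were used, and no column lacked a sample.

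Log2 values and ranks by mean log2 signal used a floor of 16 under the signals, while the rank of a probe set within a culture did not. Means and SDs of signal were taken without the floor. Probe sets were named by the platform annotation, updated by gene number to RefSeq (GRCr8): 12783 carried 1 gene, 312 several and 2771 none. A gene was read from its strongest probe set. The members and lists were chosen with earlier results of these data known. Genes named in the text were the 40 highest, the 5 highest of each list, whole sets of pump, ENaC, corticosteroid receptor and claudin genes, the 10 highest of each of 6 transporter families and the 15 most and 10 least variable above the level, and others of the lists are named after their values were seen. No test between groups was run, since 1 group was described.

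The level, scaling, floor, probe sets and cultures were varied as alternatives. Python 3.11.15 with pandas 2.3.3 and numpy 2.4.6 was used, and the scripts were tested on simulated data. The number of arrays limits the precision.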

Additional observations from a re-analysis of the deposited data

Results flagged for a closer look

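In a group of 4, a culture was singled out when its gap to the nearest other value, on the log2 scale, took up more of the whole range than Dixon's 95% criterion allows (which chance meets in about 1 of 20 genes). Of 248 named genes checked, 19 met it (7.66%), and culture 3 was the culture singled out in 14 of them, culture 4 in 4 and culture 1 in 1. Some genes were named for their large or small spread alone, which bears on this share, and without them 15 of 225 met it (6.67%), 12 of these in culture 3.

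Culture 3 was high for Lcn2 (13779), Krt18 (13057), Rps3a (13452), Rps28 (11806), Atp5f1a (4475), Trpc4ap (2658) and Usp18 (615). Of these, Lcn2 was at 10368 to 10784 in the other cultures and Usp18 at 191 to 224. Culture 3 was low for Rps3 (7061), Sparc (4832), Perp (2051), Clcn3 (497), C1s (441), Col11a1 (413) and Trpm7 (365). It was also the culture with the highest scale factor and the highest 3′ to 5′ ratios, and the part of these in the values was not tested.

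Culture 4 was low for Wfdc18 (1545), Upp1 (248), Aqp1 (152) and Hsd11b1 (94.6). Wfdc18 was at 4885 to 6036 in the other cultures, and Hsd11b1 was under the other-tissue level in culture 4 alone. Culture 1 was high for Hsd11b2 (228), whose other values were within 158 to 162.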

How the results depend on the processing

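Signals as deposited, before rescaling, gave a median SD between cultures of 0.6437 log2 units in place of 0.2581, and 88.53% of probe sets above the level with a range of at least 2-fold in place of 4.97%, by construction, since the arrays differ in scale. Without the floor of 16 the median SD was 0.2882 and the lowest correlation 0.9549, and with a floor of 100 they were 0.1487 and 0.9760. Spearman's rho gave 0.9671 as the lowest correlation. Leaving out each culture in turn gave a median SD of 0.2053 to 0.2560, a lowest correlation of 0.9628 to 0.9705 and a share of 1.620 to 3.877%, the first and last of these lowest without culture 3. With medians set equal and with quantile normalization the median SD was 0.2481 and 0.2437 and the share 5.148% and 4.622%.

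The count of probe sets above the level (7984) was 8785 with the 90th percentile of the other-tissue genes, 5944 with their highest signal and 7598 with plain probe sets alone, and 8013 to 8210 with a culture left out. Of 240 list members above it, 263, 187 and 188 were counted with the 90th percentile, the highest signal and all probe sets of a gene, and 244 to 246 with a culture left out. The highest signal moved 10 of 33 lists by over 1.5 times and all probe sets 7. Of the 100 highest probe sets, 94 to 100 stayed so under each alternative run. Of 295 named genes, the mean over all probe sets moved 59 by over 1 SD. No paired analysis was possible because 1 group was described with no test. Array number and probe design limit the precision, and low signals are the least certain.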

Other observations

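The genes in the next sentences differed between cultures and were named after their values were seen, and Reg3b, Spon1 and Lyz2 missed the level in at least 1 culture. Reg3b, a secreted lectin that acts on bacteria, gave 1742, 1444, 92.8 and 916 in cultures 1 to 4, the largest SD of log2 signal of all 10411 genes. Spon1, the matrix protein spondin, gave 995, 609, 149.5 and 474. Lyz2, the lysozyme of macrophages, gave 433, 351, 173 and 88.5, with cultures 1 and 2 above cultures 3 and 4, as for Col2a1 and Col9a1. Of the complement proteases, C1r gave 876, 852, 322 and 526 beside the values of C1s, both lowest in culture 3. Klk8, a further kallikrein-related protease, gave 638, 576, 1011 and 1387, and like Klk6 it was highest in culture 4.

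Proteasome genes, the family of the protein-degrading complex, were above the level in 4 of 4 cultures in 34 of 34 cases. Of 3083 probe sets that carried no gene name or several, 1150 (37.3%) were above the level in 4 of 4, against 50.3% of all probe sets.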
